A study of Mus musculus with 2 samples.

Results

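The lysosomal cathepsins and legumain were examined in cultured ovaries of 2-week-old mice exposed for 3 days to ligands of the tachykinin (TK) receptors. The members were 10 genes set by name, in a list drawn up with earlier results of these data known: the cysteine cathepsins Ctsb, Ctsc, Ctsh, Ctsk, Ctsl, Ctss and Ctsz, the aspartic cathepsin Ctsd, the serine cathepsin Ctsa and the asparaginyl endopeptidase Lgmn. Their RefSeq transcripts were measured by 12 of the 55674 probes of the array, and the 10 genes stand among 20658 named genes. Ovary pieces were cultured with TKR agonists or with TKR antagonists, and 1 single-colour array was hybridised for each group. According to the methods, each ovary was cut lengthwise into symmetrical pieces to limit error from differences between ovaries. They do not state whether pieces of the same ovaries went to both arrays. The methods name 1 agonist and 1 antagonist for each of the receptors TACR1, TACR2 and TACR3, all at 1 μM, among them the agonists [Sar9, Met(O2)11]-SP for TACR1 and GR-64349 for TACR2 and the antagonists GR-94800 for TACR2 and SB218795 for TACR3. The study's text describes the antagonist ovaries as given all 3 antagonists, whereas it does not say in so many words whether the agonists were combined for the array. The mouse strain and the number of ovaries behind each RNA are not given for the arrays in the sources used here, and ovaries cultured without a ligand were not analysed here.

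Cathepsins are the proteases of the lysosome, the acidic compartment in which a cell takes apart proteins from endocytosis and autophagy. They are made as inactive precursors, sorted to the lysosome by mannose 6-phosphate receptors and activated there by cleavage, in part by each other and by legumain. Some, such as cathepsins B, D and L, are made by nearly all cells, whereas cathepsin S is best known from macrophages and other antigen-presenting cells and cathepsin K from osteoclasts. In the ovary, these proteases are known for the turnover of degenerating follicle cells and of matrix around the growing follicle.

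Since each group was measured on 1 array, the spread between ovaries could not be estimated and no test was made. A value called signal is the spot brightness after background correction by the image analysis software, in linear units of its own array. A log2 ratio is the signal with the agonists over that with the antagonists, after each array was divided by its 75th percentile (672 signal units with the agonists, 569 with the antagonists). The error given with a ratio comes from the software's own error of both spots and covers the measurement of a spot only. It was 0.20 for every member, since the software sets the error of a bright spot near a fixed share of its signal. For 161 probes printed at 10 spots and well above background at all of them, the SD of the log2 ratio between spots had a median of 0.07. The 95th percentile of this SD was 0.25. Bright genes are the 8430 genes well above background on both arrays whose mean signal was at or above the 75th percentile. All 10 members were bright, and 0 spots of the arrays were saturated. Oocyte and granulosa markers were present, with 10 of 10 genes of each list well above background on both arrays.

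The members were higher with the agonists on this scale, and cathepsins S and C had the largest ratios. All 10 members had a log2 ratio above 0, between 0.06 for Ctsl and 1.59 for Ctss, whereas 28.6% of the bright genes had a ratio above 0. The median over the members was 0.34, against -0.10 over the 15258 genes well above background on both arrays and -0.15 over the bright genes. At least 2-fold higher with the agonists were 2 of the 10 members, Ctss and Ctsc. The same fold was reached by 4.01% of all genes measured on both arrays and by 2.09% of the bright genes. No member was at least 2-fold lower, a fold reached by 0.225% of the bright genes. For 8 of the 10 members the ratio exceeded its error, which was so for 13.9% of the bright genes. All of these counts compare 1 array with 1 array.

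**Figure D1:**
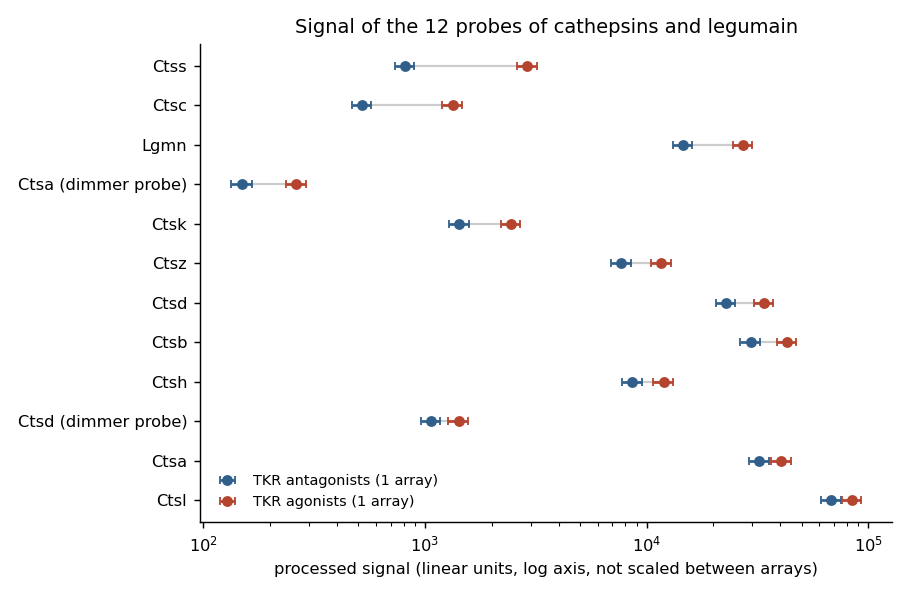
Processed signal (log axis, linear units of each array, not scaled between arrays) of the 12 probes on the TKR agonist array and the TKR antagonist array, with bars for the software's error of a spot. The points of Ctss and Ctsc lie farthest apart, and those of Ctsl and of the bright Ctsa probe lie closest.

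RefSeq promoter windows of the GRCm38.p6 build, from 250 bases before the start site to 50 bases after it, were matched for 8 of the 10 genes. They were searched on both strands for GAGGAA, the purine-rich core bound by PU.1, an ETS factor of myeloid cells. The search also covered GGAAGT, a core bound by ETS factors, which does not set other ETS factors apart from PU.1. It further covered CACGTG and TCACGTG, the E-box in the element bound by the lysosomal transcription factor TFEB and its relatives. The 7 windows that held a match are printed in the order of the genes' ratios, 5′ to 3′ on the strand of the gene, with the matches on either strand in capitals. Matches overlap where they share letters, and every TCACGTG contains CACGTG.
Ctss, chr3:95526536-95526835, plus strand: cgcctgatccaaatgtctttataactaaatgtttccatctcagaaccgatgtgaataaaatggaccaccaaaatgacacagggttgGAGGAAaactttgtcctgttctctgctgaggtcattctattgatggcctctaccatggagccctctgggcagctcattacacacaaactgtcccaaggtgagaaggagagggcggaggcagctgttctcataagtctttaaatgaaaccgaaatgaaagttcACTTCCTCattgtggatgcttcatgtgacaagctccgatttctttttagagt
Ctsc, chr7:88277835-88278134, plus strand: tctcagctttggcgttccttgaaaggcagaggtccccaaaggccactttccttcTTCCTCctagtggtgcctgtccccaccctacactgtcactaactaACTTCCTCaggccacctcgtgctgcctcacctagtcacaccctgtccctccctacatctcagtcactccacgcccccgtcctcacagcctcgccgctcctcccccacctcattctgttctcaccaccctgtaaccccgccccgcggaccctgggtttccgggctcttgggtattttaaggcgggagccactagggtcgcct
Lgmn, chr12:102439043-102439342, minus strand: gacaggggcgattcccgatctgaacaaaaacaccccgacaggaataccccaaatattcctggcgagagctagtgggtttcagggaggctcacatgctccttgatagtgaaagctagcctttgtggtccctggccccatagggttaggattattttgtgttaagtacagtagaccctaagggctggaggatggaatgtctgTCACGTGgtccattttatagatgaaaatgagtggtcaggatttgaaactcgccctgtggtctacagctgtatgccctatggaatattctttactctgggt
Ctsk, chr3:95498960-95499259, plus strand: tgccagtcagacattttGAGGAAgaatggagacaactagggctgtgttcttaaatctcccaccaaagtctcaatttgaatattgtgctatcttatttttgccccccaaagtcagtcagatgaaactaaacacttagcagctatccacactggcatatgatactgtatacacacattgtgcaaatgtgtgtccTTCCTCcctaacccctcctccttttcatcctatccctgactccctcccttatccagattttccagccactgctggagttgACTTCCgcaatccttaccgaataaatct
Ctsd, chr7:142387778-142388077, minus strand: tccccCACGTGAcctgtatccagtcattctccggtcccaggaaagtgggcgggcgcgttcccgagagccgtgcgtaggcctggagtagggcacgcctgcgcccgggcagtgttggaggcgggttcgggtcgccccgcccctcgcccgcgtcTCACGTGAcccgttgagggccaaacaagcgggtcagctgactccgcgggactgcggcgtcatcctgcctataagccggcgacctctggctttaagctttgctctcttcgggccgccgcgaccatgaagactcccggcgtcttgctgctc
Ctsa, chr2:164833523-164833822, plus strand: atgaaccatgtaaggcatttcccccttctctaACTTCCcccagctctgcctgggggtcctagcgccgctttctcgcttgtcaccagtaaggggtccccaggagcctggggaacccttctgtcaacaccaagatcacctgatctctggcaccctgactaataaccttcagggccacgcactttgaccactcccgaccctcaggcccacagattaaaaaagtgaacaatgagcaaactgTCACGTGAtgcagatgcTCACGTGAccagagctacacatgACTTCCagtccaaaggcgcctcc
Ctsl, chr13:64370471-64370770, minus strand: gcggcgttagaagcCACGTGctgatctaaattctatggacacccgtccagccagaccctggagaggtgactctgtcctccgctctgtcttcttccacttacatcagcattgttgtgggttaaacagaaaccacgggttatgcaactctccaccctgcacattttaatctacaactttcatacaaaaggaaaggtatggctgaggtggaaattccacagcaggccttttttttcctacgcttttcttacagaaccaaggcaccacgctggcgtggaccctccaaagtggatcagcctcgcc

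GAGGAA was found in 3 of the 8 genes, Ctss, Ctsc and Ctsk, and in 30.5% of the 17492 protein-coding genes with a window. Ctss held it from positions 87 and 251, counted from 1 at the 5′ end of the printed sequence, Ctsc from positions 55 and 102, and Ctsk from positions 18 and 193. GGAAGT was found in 4 genes, Ctss, Ctsc, Ctsk and Ctsa, against 27.7% of all genes. In Ctss (from position 249) and Ctsc (from position 100) it shares letters with the later GAGGAA, so both matches lie in a single stretch. CACGTG was found in 4 genes, Lgmn, Ctsd, Ctsa and Ctsl, against 8.91% of all genes. It began at position 202 in Lgmn, at 6 and 153 in Ctsd, at 239 and 256 in Ctsa and at 15 in Ctsl. TCACGTG was found in 3 genes, Lgmn, Ctsd and Ctsa, against 5.00% of all genes. Neither the window of Ctsz nor the other windows of Ctsa and Lgmn held a match. These matches are a description of letters and say nothing of binding.

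Cathepsin S, the cysteine endopeptidase that trims the invariant chain of class II MHC molecules, differed most. Its probe, for the transcript NM_021281, gave a signal of 2896 ± 290 (software error, 1 spot) with the agonists and 811 ± 81.3 with the antagonists. The log2 ratio was 1.59 ± 0.20, or 3.02-fold, and lay above that of 99.4% of the bright genes. It remained the highest of the members under each of the 8 other ways of processing that changed its ratio, between 1.52 and 1.87. In the promoter window of Ctss, the later GAGGAA begins at position 251, right after the 250 bases before the start site.

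Cathepsin C, the dipeptidyl peptidase that activates the granule serine proteases of leukocytes, followed. For the transcript NM_009982, the agonist array gave a signal of 1330 ± 133 and the antagonist array 518 ± 52.0. This gave a log2 ratio of 1.12 ± 0.20, or 2.17-fold, above 98.4% of the bright genes. With normexp, a model-based correction of the local background that was run on median spot signals, the ratio was 0.90, under 2-fold. Lgmn had 0.64 in that setting, so Ctsc lay closer to it than in the main setting.

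Legumain, which cleaves after asparagine and processes cathepsins to their mature chains, came next in the order of ratios. The NM_011175 probe gave 27117 ± 2712 on the agonist array against 14614 ± 1461 on the antagonist array, a log2 ratio of 0.65 ± 0.20. Cathepsin K, the collagen-cleaving cathepsin of osteoclasts, had a signal of 2440 ± 244 with the agonists and 1429 ± 143 with the antagonists for NM_007802. Its log2 ratio was 0.53 ± 0.20. These ratios, 1.57-fold and 1.44-fold, lay above those of 95.5% and 94.1% of the bright genes.

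The exopeptidases other than cathepsin C differed less. Cathepsin Z, a carboxypeptidase also called cathepsin X, had signals of 11651 ± 1165 and 7689 ± 769 on the agonist and antagonist arrays (NM_022325), a log2 ratio of 0.36 ± 0.20. Cathepsin H, an aminopeptidase, had signals of 11907 ± 1191 and 8623 ± 862 (NM_007801), a log2 ratio of 0.22 ± 0.20. Both ratios exceeded their error by less than 2 times.

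The cathepsins made by most cells had ratios from 0.06 to 0.33. Cathepsin B, a cysteine endopeptidase that also trims dipeptides, gave 43068 ± 4307 with the agonists and 29393 ± 2939 with the antagonists (NM_007798), a log2 ratio of 0.31 ± 0.20. Cathepsin L, a cysteine endopeptidase of general protein breakdown, gave 84166 ± 8417 and 68062 ± 6806 (NM_009984), a log2 ratio of 0.06 ± 0.20, which did not exceed its error. The aspartic protease cathepsin D was measured by a pair of probes for NM_009983. Its brighter probe gave 33899 ± 3390 and 22818 ± 2282 and a log2 ratio of 0.33, and the dimmer probe gave 1417 ± 142 and 1061 ± 106 and a log2 ratio of 0.18. The probes differed by less than their combined error of 0.29.

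Cathepsin A, a serine carboxypeptidase that also protects β-galactosidase and neuraminidase in the lysosome, was the gene whose probes disagreed. The bright probe for NM_008906 gave 40540 ± 4054 on the agonist array against 32230 ± 3223 on the antagonist array, a log2 ratio of 0.09 ± 0.20. The dim probe for the same transcript gave 262 ± 26.6 and 149 ± 15.7, a log2 ratio of 0.57 ± 0.21. The difference between the probes, 0.48, exceeded its error of 0.29, and the mean over both probes was 0.33.

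**Figure D2:**
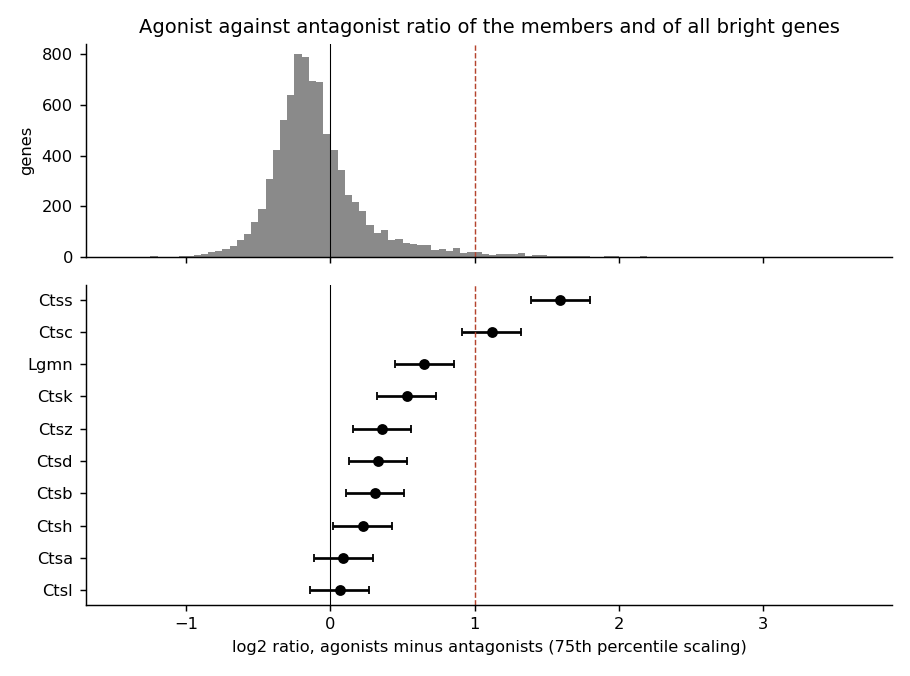
Log2 ratios (agonists minus antagonists, 75th percentile scaling) of the 10 members below a histogram of the 8430 bright genes, with bars for the software's error and a dashed line at 2-fold. Ctss (1.59) and Ctsc (1.12) lie beyond the line, in the right tail of the histogram, and the other 8 members lie between 0.06 and 0.65.

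In the order of the ratios, Ctss exceeded Ctsc by 0.47 and Ctsc exceeded Lgmn by 0.47, each with an error of 0.29. From Lgmn down to Ctsl, no gene differed from the next by more than this error, and these 8 genes had a median of 0.32. Genes farther apart among them could differ by more: Lgmn exceeded Ctsl by 0.59 and Ctsk exceeded Ctsl by 0.47, each with an error of 0.29. Ctss exceeded Ctsl, the other end of the order, by 1.53. Ctss and Ctsk are adjacent genes in the RefSeq annotation of GRCm38, and Ctss exceeded Ctsk by 1.06 with an error of 0.29. The gene on the other side of Ctss, Hormad1, had a log2 ratio of 0.06, and the one on the other side of Ctsk, Arnt, had -0.02. The neighbours of Ctsc, Grm5 and Rab38, had -0.36 and -0.01. Hormad1, Arnt, Grm5 and Rab38 were looked up for their position only.

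The rest of the lysosome had a lower median ratio than the members. Of 71 measured genes in the lists of other lysosomal hydrolases, membrane proteins, proton pump subunits and sorting proteins, 15 had a log2 ratio above 0, the median was -0.16 and 0 were at least 2-fold higher. None reached the ratio of Ctsc, and 11 exceeded that of Ctsl. The 32 other hydrolases had a median of -0.11, close to the -0.10 of all genes, with 10 genes above 0 and 22 below. Fuca1, the fucosidase, was lowest at -0.37, and Gla, the brightest, had -0.28. The lists shift with the scaling between arrays: the hydrolase median was above 0 in 4 of 14 other settings, and its difference from the median of all genes stayed between -0.03 and 0.06. The same difference for the members stayed between 0.43 and 0.52. Some settings only rescale a whole array: the median, jointly detected probes, spike-in probes, no scaling and the authors' table. These cannot change such a difference.

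The membrane proteins had a median of -0.16, with 2 of 15 genes above 0. Cd63, a tetraspanin and the brightest of them, had a signal of 109641 with the agonists and 92975 with the antagonists. The range ran from Ostm1 at -0.32 to Cln3 at 0.24. The subunits of the vacuolar proton pump, which acidifies the lysosome, had a median of -0.27, with 1 of 15 above 0. Atp6v0b was lowest at -0.58, Atp6v1h highest at 0.05, and Atp6v1f, the brightest, had -0.23. The pump median lay below that of all genes by 0.17 and the difference stayed between -0.18 and -0.10 in the other settings. Those that only rescale an array cannot change it. Among the 9 sorting proteins, 2 had a ratio above 0 and the median was -0.15. The mannose 6-phosphate receptors M6pr and Igf2r had -0.26 and -0.12, and Sort1, an alternative sorting receptor, had -0.55. Without scaling between the arrays or with spike-in scaling the medians of the membrane and sorting lists were above 0, and so was that of the pump with spike-in scaling (0.0042), settings in which the median of all genes was 0.15 and 0.18.

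Of the transcription factors that bind the E-box of lysosomal genes, Mitf had 0.60, Tfeb 0.26 and Tfe3 -0.19. Tfec, a relative found in macrophages, was well above background with the agonists only, at a signal of 25.4, at least 1.08-fold higher against the lowest signal detected on the antagonist array.

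The cathepsins outside the set were mostly dim. Of 14 other cathepsin genes, 6 were well above background on both arrays and 8 on neither. The 8, for which no fold is given, were Ctsj, Ctsm, Ctsq, Ctsr, Cts3, Cts6, Cts8 and Ctsll3, with signals of at most 18.4, and most are known from the rodent placenta. Ctsf, the brightest, had a log2 ratio of 0.15, and the 6 ran from -0.30 for Cts7 to 0.48 for Ctse. Ctsg, a neutrophil granule protease that cathepsin C activates, had signals of 24.3 on the agonist array against 24.7 on the antagonist array, a log2 ratio of -0.27 ± 0.43, and was named after its values were seen.

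Several cystatins and stefins inhibit the cysteine cathepsins, and the list holds the family by name. Of 12 genes, 11 were measured on both arrays, 7 of them with a ratio above 0, and the median was 0.18. Cystatin C (Cst3), the main secreted inhibitor, gave signals of 32961 and 28850 on the agonist and antagonist arrays, a log2 ratio of -0.05, and stefin B (Cstb), the intracellular inhibitor, gave 0.18. At least 2-fold higher were Cst11 (1.51) and, named after their values were seen, Cst8 (1.34) and Cst13 (1.05). Cst11 and Cst13 had signals of at most 121 on either array. Whether Cst8, Cst11 and Cst13 inhibit cathepsins was not tested. Stfa1 was lowest at -0.11.

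Class II antigen processing, in which cathepsin S acts, was mixed. The invariant chain Cd74 had signals of 283 on the agonist array against 107 on the antagonist array, for a log2 ratio of 1.16, and H2-DMb1 had 1.47. H2-Eb1 had 0.70, H2-Aa 0.35 and H2-Ab1 0.22, whereas Ciita, the master regulator, had -0.10. H2-DMa, the partner chain of H2-DMb1, had -0.91, and Ifi30, the lysosomal thiol reductase, had -0.33. Over the 8 genes the median was 0.28.

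**Figure D3:**
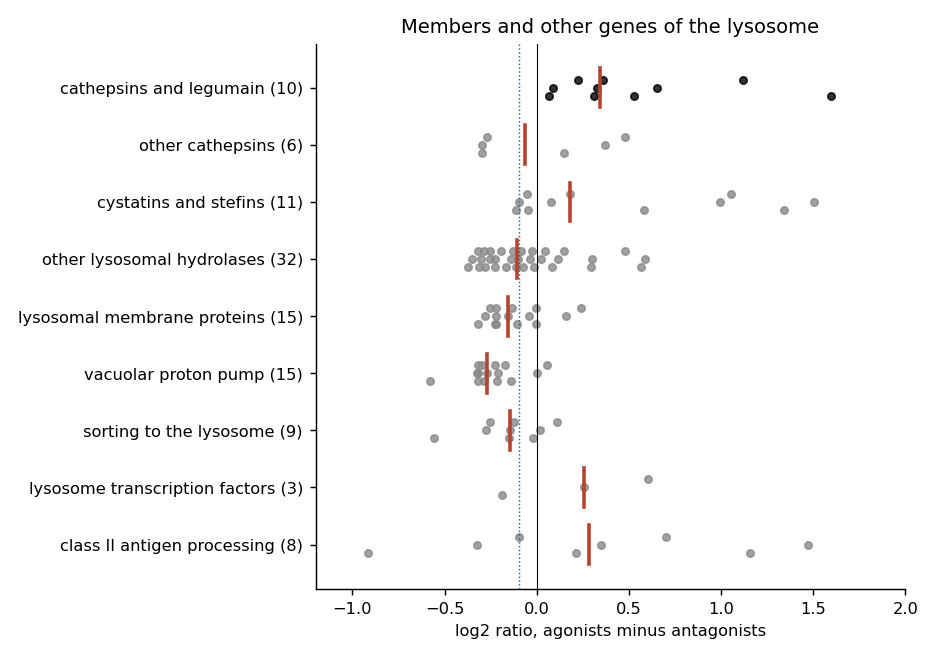
Log2 ratios of the 10 members (black) and of the genes of each list that were well above background on both arrays (grey, number in brackets), with red bars for medians and a dotted line at the median of all genes (-0.10). The medians of the hydrolases, membrane proteins, pump subunits and sorting proteins lie left of the dotted line and all members lie to its right.

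Markers of cell types that make these proteases in quantity also differed between the arrays. In bulk tissue, fewer cells of a type and less RNA per cell cannot be told apart. Of 15 macrophage markers 14 were found on the array, 13 were well above background on both arrays and Fcgr1 on the agonist array only, at least 1.52-fold higher. Of the 13, 12 had a ratio above 0 and 5 were at least 2-fold higher, with a median of 0.80. The 5 were Aif1 (1.84), Mrc1 (1.82), Adgre1 (1.42), C1qa (1.18) and C1qc (1.07), named after their values were seen except for Aif1. The other probe of Adgre1, the F4/80 antigen, had 0.72. Itgam, the brightest, had -0.31, and its other probes had 0.64 and -0.39. Csf1r, the receptor that macrophages need to survive, had 0.15, and its other probes had -0.09 and 0.04. The summed signal of the list, in units of each array's 75th percentile, was 35.0 with the agonists, compared with 28.3 for the antagonists. Itgam (signals of 6129 with the agonists and 6445 with the antagonists) and Csf1r (5607 and 4285) were its largest parts. The other probes of these genes were dimmer, at most 952 with the agonists. Itgam and Csf1r thus set much of the level of the sum. Its rise with the agonists came from the other markers, since Itgam was lower (-0.31) and Csf1r little changed (0.15). The sum without Itgam and Csf1r was not computed. The ratio of Ctss lay within the range of this list. It also lay within the ranges of the dendritic cell, stroma, surface epithelium and endothelium lists, so the range does not single out macrophages. The part of macrophages in the ratios of Ctss and Ctsc was not tested.

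Of 6 osteoclast markers 4 were measured on both arrays, with a median of 0.47 that fell to 0.18 with normexp or without the dimmest genes, below the members. Acp5, the tartrate-resistant phosphatase, had a log2 ratio of 0.75 and Atp6v0d2 had 0.84. Oscar had 0.18 and Ocstamp -0.16, Dcstamp was well above background with the agonists only (at least 1.14-fold higher), and Calcr, the calcitonin receptor, was well above background with the antagonists only, at a signal of 24.4 (at least 1.59-fold lower). Among dendritic cell markers, Itgax had 1.91 and Zbtb46 -0.08, and Flt3, Cd209a, Xcr1 and Clec9a were not well above background on either array. Cathepsin C activates proteases of leukocyte granules. Of 6 neutrophil markers 2 were measured on both arrays, Camp (0.88) and Elane (0.05), S100a9 (at least 1.35-fold higher) and Mpo (at least 1.25-fold higher) were well above background with the agonists only, and S100a8 and Ngp were on neither. Of 5 mast cell markers only Tpsb2 was measured, at -0.05, and Cpa3 was not well above background.

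Fibroblasts and stroma, a known source of cathepsin K, had a median of 0.45 over 8 markers, 7 of them above 0. Decorin (Dcn), the brightest, had 0.34, Ogn was highest at 1.61 and Lum lowest at -0.30. The ratio of Ctsk, 0.53, lay within this range, and also within those of the macrophage, osteoclast, endothelium, theca and oocyte lists, among others. Surface epithelium markers had a median of 1.03 over 7 genes and endothelium markers 0.68 over 6. Granulosa markers had a median of -0.47, with 3 of 10 genes above 0, oocyte markers 0.18 and theca markers -0.10. How the shares of these cells bear on the members was not tested.

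**Figure D4:**
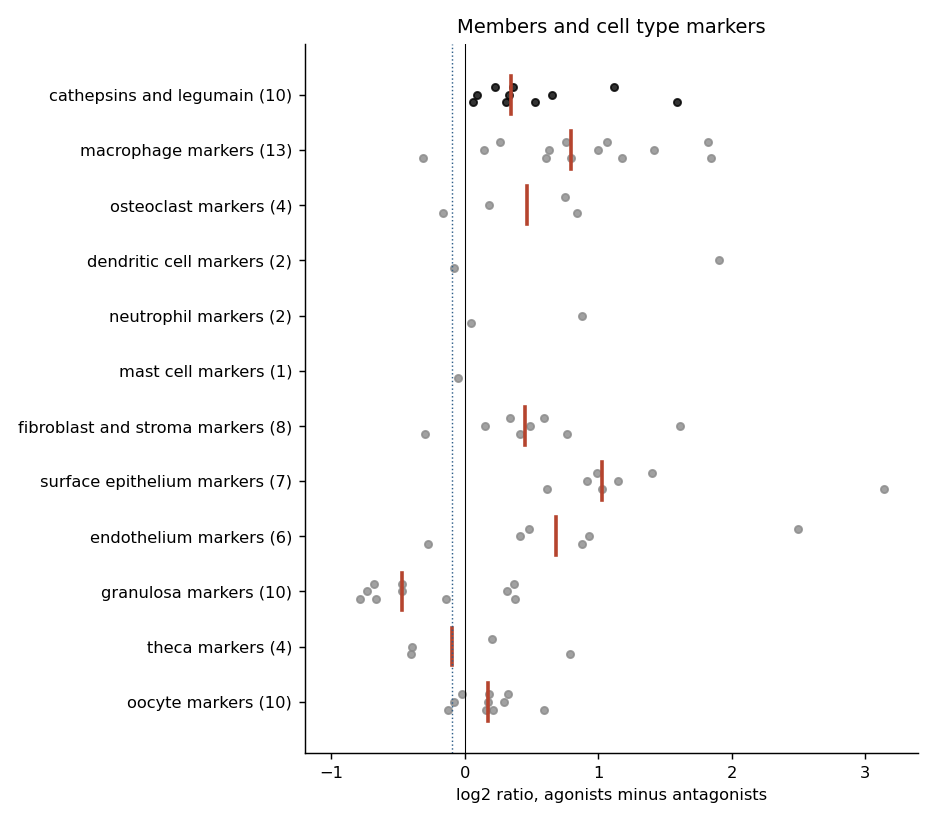
Log2 ratios of the 10 members (black) beside the marker genes of each cell type that were well above background on both arrays (grey, number in brackets), with red bars for medians of lists with at least 3 genes and a dotted line at the median of all genes (-0.10). The macrophage, osteoclast, surface epithelium, endothelium and stroma medians lie above that of the members (0.34), and the granulosa median lies at -0.47.

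All member ratios stayed above 0 under other settings. Of the 14 settings, 5 could not change a member, since each has 1 spot a probe and is bright, and 58 of the 140 ratios were identical to those given. The other 82 were all above 0, the lowest being 0.009 for Ctsl with scaling on the median. Settings that only rescale a whole array shift every gene equally, so their values are not separate checks. A ratio above 0 also sets a member apart less where the typical gene is itself above 0. The median of all genes was 0.15 for unscaled arrays and 0.18 for arrays scaled on spike-in probes. The share of all genes above 0 was not counted in the other settings. The number of members at least 2-fold higher was 1 with normexp and 2 in the other settings. At a threshold of 1.5-fold it was 3 and at 4-fold 0. The share of all genes at least 2-fold higher also moved. It was 2.12% with normexp and ran from 3.59% with scaling on the median to 6.88% with spike-in scaling elsewhere. The shares of all genes at 1.5-fold and 4-fold were not counted.

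**Figure D5:**
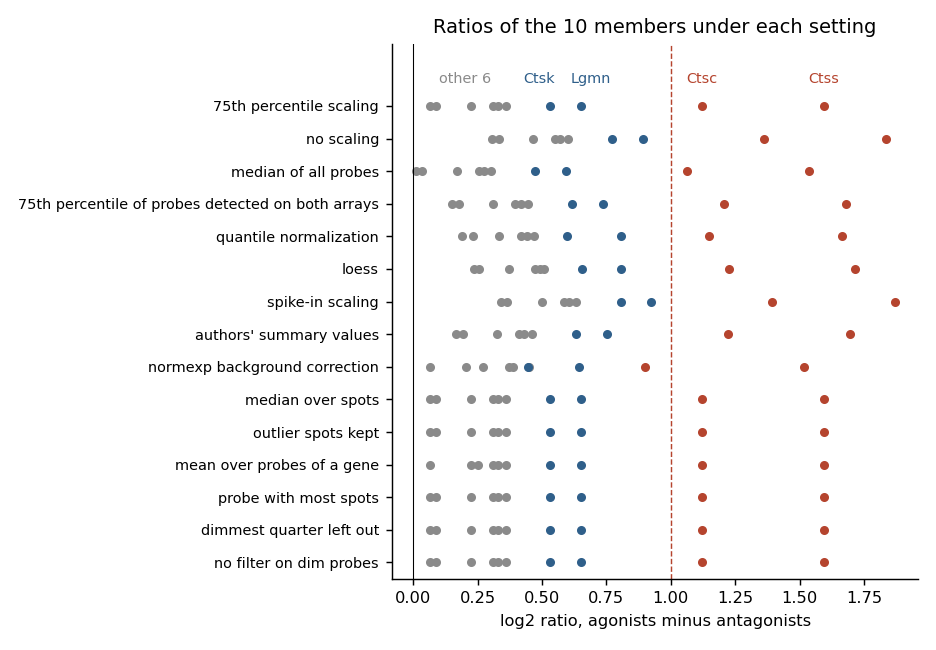
Log2 ratios of the 10 members in each of 15 settings, the main one on top, with a dashed line at 2-fold; red points are Ctss and Ctsc, blue points Lgmn and Ctsk, grey points the other 6. Ctsc falls left of the line in the normexp row only, and all points move to the right without scaling and under spike-in scaling.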

How the data were processed

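Gene expression in cultured mouse ovaries was measured with 2 single-colour Agilent arrays, grouped by the sample titles. The authors deposited the spot intensities of Agilent Feature Extraction 10.10.1.1, background-corrected and not scaled between arrays. A deposited table of processed intensities equals them times a constant per array (1.99 for the agonists, 2.19 for the antagonists; column medians 128.5 and 115), and how the constants were set is not given in the sources used here.

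Control and outlier spots were left out, log2 signals were reduced by the 75th percentile of their array, and replicate spots were averaged by probe. A probe counted as well above background if the software's flag was set for more than 50% of its spots. Names came from RefSeq transcripts of GRCm38.p6 (27230 named probes), and of several probes of a gene the brightest by mean signal was used. A gene detected on 1 array only has a lower bound, taken against the larger of its own dim value and the lowest detected value of that array. The members and lists were chosen with earlier results of these data known. Genes named from a list are those with the largest ratio, the smallest ratio and the highest signal, or any gene of a list of at most 9, except for an item that is not reported here. The number of arrays limits the precision. The calculation was tested on simulated data.

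Other settings tried were the median, jointly detected probes, 8 spike-in probes, quantile and loess (span 0.3) normalization or nothing in place of the percentile, the authors' table, and normexp (offset 50, median spot signals). Further settings changed how spots, probes and dim genes were treated, and the thresholds were 1.5-fold and 4-fold. Python 3.11.15, numpy 2.4.6, pandas 2.3.3, R 4.3.3 and limma 3.58.1 were used.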

Additional observations from a re-analysis of the deposited data

How the results depend on the processing

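No paired analysis was possible because the agonist and antagonist conditions have 1 array each. The median log2 ratio of the 10 members, 0.34, was 0.59 without scaling and 0.62 under spike-in scaling, settings that move the median of all genes from -0.10 to 0.15 and 0.18. In the other 12 settings it moved by less than the software's error of a ratio. The number of members at least 2-fold higher, 2, was 1 with normexp and 0 at a threshold of 4-fold. With normexp 2.12% of all genes were at least 2-fold higher, against 4.01% in the main setting. Of 140 values of single members, 58 were identical by construction, the setting acting on replicate spots, several probes or dim genes. Of the other 82, 60 moved by less than their error, 22 by more and 0 changed sign. Of 266 list medians, 44 moved by more than the median software error of a single ratio in the list. That error is not an error of the median itself. A further 2 medians that had exceeded it changed sign: the proton pump median was 0.0042 with spike-in scaling and that of the transcription factors -0.0821 with normexp. The normexp setting changed the spot summary, the background model and the offset together, and which of these brought Ctsc to 0.90 or turned the transcription factors was not tested. The osteoclast median of 0.47 was 0.18 with normexp, 0.18 without the dimmest genes and 0.23 with no filter. The cause of the disagreement between the Ctsa probes was not tested. Signal over background does not limit the bright members, and it leaves 8 of the other cathepsins without a fold.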
